A study of Mus musculus with 14 samples.

Results

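This report describes 45 genes of the lysosome in adult mouse neural stem and progenitor cells, chosen by name from the 53696 genes in the deposited tables. They comprise 11 proteases, 11 glycosidases, 4 sulfatases, 4 lipid hydrolases, 4 genes of lipid transfer and hydrolase cofactors, 8 membrane proteins and the 3 transcription factors Tfeb, Tfe3 and Mitf. Their poly-A mRNA was measured in 14 libraries of 4 groups, all labelled as adult cells of the strain C57BL/6. Quiescent cells (4 libraries, BMP4) were set against proliferating cells (4 libraries, FGF and EGF). Yme1l KO cells (3 libraries, a Cre-GFP adeno-associated virus) were set against GFP control cells (3 libraries, a GFP adeno-associated virus), and both of these groups were kept in FGF and EGF. YME1L is a protease of the inner mitochondrial membrane. The series names the comparison as wild type against Yme1lKO, although all 14 libraries, the KO ones included, are labelled with a wild-type mouse. The labels give no age, no floxed allele, no promoter for Cre and no time after infection, and they do not say whether replicates are separate animals or cultures, so p-values refer to library-to-library variation that can be technical in origin. Each pair of groups was quantified in its own table, and each gene was tested within its pair.

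The lysosome is an acidic organelle in which hydrolases break down proteins, glycans, lipids and other material delivered by endocytosis and autophagy. Most of its soluble hydrolases are made in the endoplasmic reticulum and delivered by sorting receptors, while heavily glycosylated proteins such as LAMP1 and LAMP2 line its membrane. TFEB, TFE3 and MITF are related basic helix-loop-helix factors that bind E-box sequences of the kind CACGTG, found near the start of many lysosomal genes. mTORC1 on the lysosomal surface phosphorylates these factors and keeps them in the cytoplasm when nutrients are plentiful, so their mRNA level does not give their activity. In the adult brain, quiescent neural stem cells are known for large lysosomes.

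The promoters of some members carry this E-box several times, and parts of 9 windows that hold it are printed as examples, so that the motif can be seen in its context. The windows of Cln3, Ctsa, Ctsl and Gaa, which also hold it, are not printed. The sequences are from RefSeq (build GRCm38.p6), which gave 48 promoter windows for 40 of the 45 members, each running from 250 bases before to 50 bases after a gene start. CACGTG, which reads the same on both strands, stood in 27.1% of the members' windows (13 of 48), in 9.89% of the 13095 windows of genes tested here and in 7.15% of all 32851 windows. The longer form TCACGTG, counted on both strands and always overlapping CACGTG, was found in 22.9% of the members' windows, 5.8% of those of genes tested here and 3.77% of all windows. TCATGTG, a related form that overlaps neither, was found in 14.6% of the members' windows, 1.86% of those of genes tested here and 3.77% of all windows, again on both strands. A match describes the letters in these windows and is neither evidence of binding nor a cause of a change. The windows with CACGTG belonged to Arsa, Cln3, Ctsa, Ctsd, Ctsf, Ctsl, Gaa, Gla, Glb1, Lamp1, Mcoln1, Naglu and Sgsh.

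The 9 stretches of 100 bases that follow run along the strand of the gene, 5′ to 3′, with each CACGTG in capitals. All end at the base before the start, except that of Gla, which lies farther upstream. Lamp1 held 4 copies, at 61, 45, 28 and 15 bases before the start. Mcoln1 and Gla each held 2, the first at 71 and 45 bases and the second at 227 and 194 bases before the start. Ctsd also held 2, at 245 and 98 bases before the start, and only the nearer one lies in the stretch printed. Cln3 and Ctsa, not printed, held 2 each as well.
Lamp1 (chr8:13159061-13159160, plus strand): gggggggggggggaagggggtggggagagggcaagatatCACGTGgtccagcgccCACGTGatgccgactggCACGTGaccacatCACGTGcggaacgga
Mcoln1 (chr8:3500419-3500518, plus strand): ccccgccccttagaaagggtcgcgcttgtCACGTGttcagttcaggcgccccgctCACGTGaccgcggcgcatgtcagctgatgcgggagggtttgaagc
Ctsd (chr7:142387828-142387927, minus strand): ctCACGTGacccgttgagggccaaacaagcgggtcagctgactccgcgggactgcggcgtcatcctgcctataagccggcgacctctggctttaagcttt
Ctsf (chr19:4855065-4855164, plus strand): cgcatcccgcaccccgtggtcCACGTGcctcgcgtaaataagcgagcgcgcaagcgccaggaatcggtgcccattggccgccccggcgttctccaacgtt
Naglu (chr11:101069994-101070093, plus strand): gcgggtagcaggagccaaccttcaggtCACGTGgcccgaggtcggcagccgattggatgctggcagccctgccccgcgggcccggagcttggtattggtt
Arsa (chr15:89477425-89477524, minus strand): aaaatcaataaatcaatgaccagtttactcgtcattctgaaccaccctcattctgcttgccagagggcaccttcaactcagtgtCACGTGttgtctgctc
Sgsh (chr11:119355511-119355610, minus strand): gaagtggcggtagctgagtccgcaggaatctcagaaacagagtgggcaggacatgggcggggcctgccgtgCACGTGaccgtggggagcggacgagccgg
Glb1 (chr9:114400978-114401077, plus strand): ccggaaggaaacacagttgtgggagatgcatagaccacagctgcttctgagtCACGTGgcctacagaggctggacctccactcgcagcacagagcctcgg
Gla (chrX:134601156-134601255, minus strand): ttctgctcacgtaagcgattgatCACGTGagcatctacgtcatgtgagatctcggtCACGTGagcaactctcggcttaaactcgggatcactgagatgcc

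The libraries held 6475092 to 8797741 counts in quiescent and 8331995 to 8992697 in proliferating cells, and 9053122 to 9490735 in Yme1l KO and 9226070 to 10320727 in GFP control cells. Yme1l1, the targeted gene, had 25.7, 25.6 and 22.9 CPM in the KO libraries, against 135, 124 and 121 CPM in the GFP control libraries (CPM, counts scaled to the TMM-adjusted library size; log2 fold change -2.36, SE 0.07, adjusted p = 5.89e-11, edgeR). In the other pair Yme1l1 had 4.85, 11.1, 3.91 and 4.88 CPM in quiescent and 3.90, 3.09, 4.77 and 2.18 CPM in proliferating libraries. All of these lay below the KO libraries, although CPM were scaled within each pair and this gap was not tested. KO replicate 3 stood apart from the other KO libraries along the first principal component of its pair (36.5, against 18.6 and 16.6). Quiescent replicate 2 lay farthest out among quiescent libraries on that component of its own pair (-52.7, against -45.3, -45.7 and -46.9). Of 12 markers of neural stem and progenitor cells, at least 10 exceeded 1 CPM in each group. Among 13 microglial markers, Cx3cr1, Tyrobp, C1qa, C1qb, C1qc and Ptprc had no count in any library, and the summed level of the 13 was 9.34 to 14.6 CPM in quiescent, 0.221 to 1.58 CPM in proliferating, 3.82 to 5.81 CPM in Yme1l KO and 2.75 to 4.18 CPM in GFP control cells. The quiescent sum came mostly from Lyz2 (182 counts over 4 libraries, against 20 in proliferating cells), Tmem119 (110 against 4) and Trem2 (49 against 0). Ctss (ENSMUSG00000038642), a cathepsin abundant in microglia, was a member with no count in any of the 14 libraries. Summed astrocyte markers were at 4811 to 5329 CPM in quiescent, 4128 to 4279 CPM in proliferating, 1042 to 1202 CPM in Yme1l KO and 869 to 883 CPM in GFP control cells. Neuroblast and neuron markers summed to 57.9 to 120 CPM in quiescent and 67.3 to 102 CPM in proliferating cells. Their sums were far higher in the other pair, at 1278 to 1346 CPM in KO and 1273 to 1374 CPM in GFP control cells. Vessel and fibroblast markers summed to 11.9 to 15.8 CPM in quiescent and 3.90 to 5.30 CPM in proliferating cells, and to 10.6 to 12.6 CPM in KO and 6.86 to 7.08 CPM in GFP control cells. The neural stem and progenitor markers summed to 5112 to 5860 CPM in quiescent and 4780 to 4970 CPM in proliferating cells, and to 5139 to 5438 CPM in KO and 6043 to 6170 CPM in GFP control cells. Of the 11 tested in quiescent cells, 4 were higher and 6 lower, beside 29.9% and 35.5% of all genes (adjusted p under 0.05, edgeR). Of the 11 tested in KO cells, 1 was higher and 6 were lower, beside 25.4% and 26.2%. The 10 most abundant genes took 14.2% to 15.6% of counts in quiescent and 6.23% to 6.75% in proliferating libraries, and 6.25% to 6.58% in KO and 5.64% to 5.72% in GFP control libraries. Mitochondrial DNA took 4.33% to 4.43% of counts in KO and 3.54% to 3.87% in GFP control libraries. The part of these markers and shares in the results below was not tested.

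Both conditions went with more lysosomal mRNA. In quiescent cells 33 of the 43 members tested were higher than in proliferating cells and 4 were lower, with a median log2 fold change of 0.41 over the 43. Among all 12245 genes tested, 29.9% were called higher and 35.5% lower (65.4% in all), with a median of -0.01. In Yme1l KO cells 39 of the 44 members tested were higher than in GFP control cells and 1 was lower, with a median of 0.54. Of all 12625 genes tested there, 25.4% were called higher and 26.2% lower (51.6% in all), with a median of 0.00. A gene was called at an adjusted p under 0.05 in edgeR's quasi-likelihood test with Benjamini-Hochberg adjustment over all genes tested. The 4 libraries of quiescent cells lay above all 4 of proliferating cells for 32 of the 43 members and below them for 4 (26.4% and 33.2% of all genes). For 40 of the 44 members tested all 3 KO libraries lay above all 3 controls, and for 1 they lay below (30.5% and 30.8% of all genes). In RNA of bulk samples, a higher level per cell and a different mix of cells cannot be told apart.

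Some of these calls depended on the unit or the method. In quiescent cells 29 of 43 members, and in KO cells 36 of 44, kept their direction and side of the threshold under every alternative run. In counts scaled from TPM, the calls for Man2b1, Sgsh and Tfeb in quiescent cells were lost (adjusted p = 0.0556, 0.17 and 0.114), as were those for Asah1, Ctsc, Galc, Gusb, Ids and Mitf in KO cells (adjusted p = 0.0665 to 0.421), each in the same direction. Removing the trend with GC content ended the call for Tfe3 in quiescent cells (-0.06, adjusted p = 0.229), and DESeq2 those for Asah1, Cln3 and Gusb in KO cells (adjusted p = 0.0538, 0.127 and 0.123).

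The summed level of the members, in TPM, a unit that allows for transcript length, was 10386, 10059, 10622 and 10330 in quiescent cells, against 7430, 7331, 7427 and 7493 in proliferating cells. That is a ratio of 1.39 between the means of 10349 ± 231 and 7420 ± 67.0 TPM (SD, n = 4 and 4), and the groups did not overlap. The KO libraries had 7840, 7600 and 8963 TPM, against 5299, 5367 and 5357 TPM in the GFP control libraries, a ratio of 1.52 (8134 ± 727 and 5341 ± 37.2 TPM, SD, n = 3 each). KO replicate 3 was the highest, and without it the ratio was 1.45. A few genes made up most of the sum in every group. Psap, the precursor of the saposins that activate sphingolipid hydrolases, averaged 2349 ± 77.5 TPM in quiescent and 1729 ± 21.1 TPM in proliferating cells, and 1788 ± 207 TPM in KO and 1049 ± 15.2 TPM in GFP control cells. Ctsd, the aspartic protease cathepsin D, followed in quiescent cells with 1476 ± 76.9 TPM, against 849 ± 20.4 TPM in proliferating cells. In the other pair it had 931 ± 127 TPM in KO and 504 ± 8.76 TPM in GFP control cells.

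**Figure D1:**
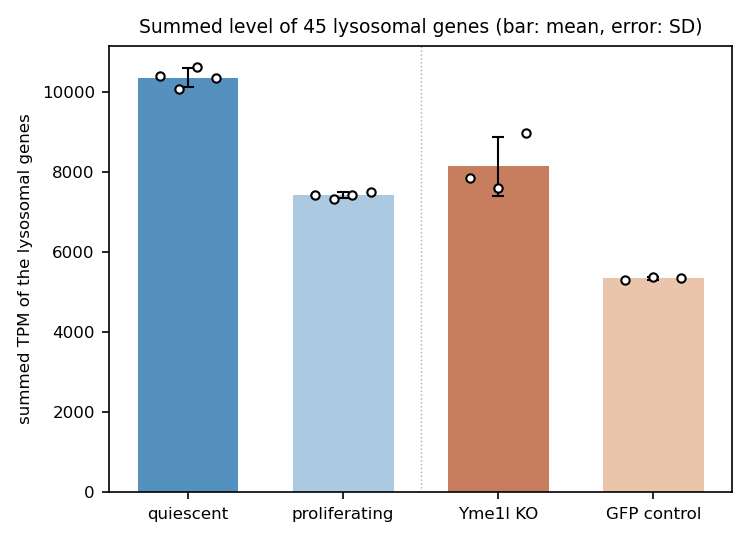
Summed TPM of the 45 lysosomal genes in each library (circles), with the mean as a bar and the SD as an error bar, for quiescent, proliferating, Yme1l KO and GFP control cells. Quiescent libraries lie between 10059 and 10622 and proliferating ones between 7331 and 7493, and KO libraries between 7600 and 8963 and GFP control ones between 5299 and 5367.

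Proteases rose in both comparisons, with 8 of 10 tested higher and 1 lower in each. This and the counts by role below stand beside 29.9% of all genes higher and 35.5% lower in quiescent cells. In KO cells the shares of all genes were 25.4% and 26.2%. In quiescent cells the largest rise was that of Ctsh, cathepsin H, an aminopeptidase (ENSMUSG00000032359, chromosome 9, 89936205 to 89958142 on GRCm39). It had 3.88, 2.69, 5.21 and 5.58 CPM in quiescent libraries, against 1.37, 1.77, 1.63 and 1.61 CPM in proliferating libraries (log2 fold change 1.43, SE 0.29, adjusted p = 0.00044). All quiescent libraries were higher, but the level was low, with a range in quiescent cells about as wide as the lowest value itself. Ctsl, the endopeptidase cathepsin L, was more abundant and its groups lay farther apart, with 271, 286, 289 and 283 CPM in quiescent and 129, 130.4, 126 and 130.2 CPM in proliferating libraries (log2 fold change 1.13, SE 0.04, adjusted p = 1.84e-12). Cathepsin O (Ctso) changed by 1.09, cathepsin D (Ctsd) by 0.79 and the tripeptidyl peptidase Tpp1, mutated in a childhood neuronal ceroid lipofuscinosis, by 0.79 on the log2 scale, all called. Ctsd had 1848, 1534, 1747 and 1736 CPM in quiescent libraries, against 1003, 994, 1016 and 966 CPM in proliferating libraries.

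In the Yme1l KO the largest rise among proteases, and among all members, was that of Ctsf, cathepsin F (ENSMUSG00000083282, chromosome 19, 4905158 to 4910946). Its level was 69.6, 69.0 and 95.4 CPM in KO libraries, against 30.5, 34.2 and 33.8 CPM in GFP control libraries (log2 fold change 1.25, SE 0.13, adjusted p = 4.96e-05), and 56.4, 49.4, 57.6 and 57.4 CPM in quiescent libraries, against 41.0, 38.6, 37.5 and 36.4 CPM in proliferating libraries (log2 fold change 0.52, SE 0.07, adjusted p = 1.02e-05). The groups did not overlap in either pair, and KO replicate 3 was the highest. Ctsd had 943, 948 and 1192 CPM in KO libraries, against 571, 551 and 549.6 CPM in GFP control libraries (log2 fold change 0.88, SE 0.08, adjusted p = 1.77e-05), and again KO replicate 3 lay above the others. Tpp1 (0.84), Ctsl (0.77), Ctso (0.66), Ctsh (0.64), the carboxypeptidase Ctsa (0.59), which also shields beta-galactosidase and neuraminidase, and Ctsb (0.52) were also higher.

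Ctsc, the dipeptidyl peptidase that activates serine proteases of immune granules (ENSMUSG00000030560, chromosome 7, 87927293 to 87960096), was the exception in both pairs. It had 38.1, 37.4, 37.6 and 40.6 CPM in quiescent libraries, against 62.5, 62.2, 59.3 and 73.1 CPM in proliferating libraries (log2 fold change -0.74, SE 0.07, adjusted p = 2.8e-07). In the KO libraries it had 145, 144 and 119 CPM, against 157, 157 and 160.3 CPM in the GFP control libraries (log2 fold change -0.22, SE 0.07, adjusted p = 0.0138). Both sets of groups were separate, and the KO difference was smaller: without KO replicate 3 it was -0.13 (adjusted p = 0.00856), and without GFP control replicate 3 the call was lost (adjusted p = 0.0567). Ctsz, cathepsin X, was not called in either pair (log2 fold change 0.10, SE 0.11, adjusted p = 0.445 in quiescent cells and log2 fold change 0.33, SE 0.36, adjusted p = 0.474 in KO cells), and without quiescent replicate 2 it was called higher (0.25, adjusted p = 0.037). Its level was 26.8, 23.1, 29.1 and 28.7 CPM in quiescent and 29.4, 22.6, 23.0 and 25.5 CPM in proliferating libraries, but 0.71 to 1.47 CPM in the libraries of the other pair.

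**Figure D2:**
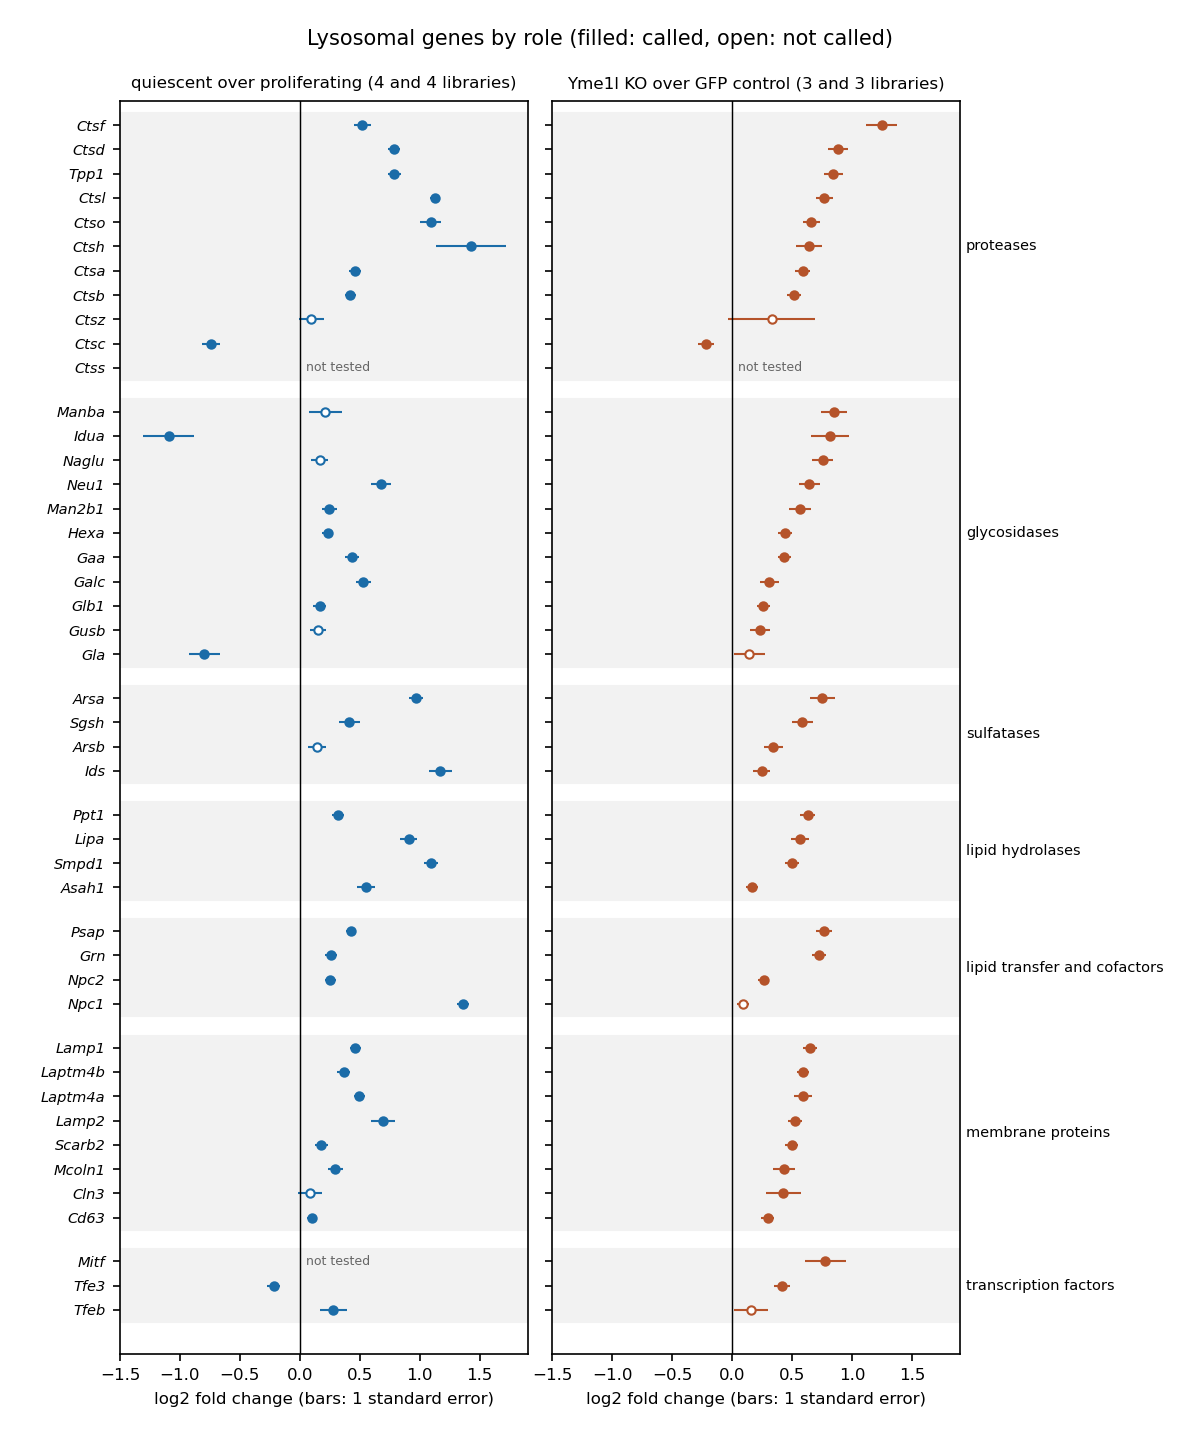
Log2 fold change of each member, with 1 standard error as a bar, in quiescent over proliferating cells (left) and in Yme1l KO over GFP control cells (right), grouped by role. Filled points were called and open points were not. Most points lie right of 0 on both sides, with Ctsc left of 0 on both and Idua, Gla and Tfe3 left of 0 in quiescent cells only.

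Glycosidases, which remove sugars from glycolipids, glycogen and glycosaminoglycans, changed less uniformly in quiescent cells, where 6 of 11 were higher and 2 lower. In KO cells 10 of 11 were higher and none was lower. Neu1, the neuraminidase that removes sialic acid (ENSMUSG00000007038, chromosome 17, 35150229 to 35154929), had the largest rise in quiescent cells. Its level was 82.1, 62.6, 66.9 and 73.7 CPM in quiescent libraries, against 40.4, 47.4, 45.2 and 45.2 CPM in proliferating libraries (log2 fold change 0.68, SE 0.08, adjusted p = 2.98e-06), and in the KO it changed by 0.64. Galc, the galactosylceramidase deficient in Krabbe disease (0.53), Gaa, the acid alpha-glucosidase that degrades glycogen (0.43), the alpha-mannosidase Man2b1 (0.25), Hexa, a subunit of beta-hexosaminidase (0.23), and the beta-galactosidase Glb1 (0.17) were also higher in quiescent cells. Leaving out quiescent replicate 2 gave 0.38 for Man2b1, 0.36 for Hexa and 0.26 for Glb1. With library size alone as the scaling these 3 were no longer called (adjusted p = 0.112, 0.053 and 0.632).

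Among the glycosidases, Manba, the beta-mannosidase (ENSMUSG00000028164, chromosome 3, 135191372 to 135277165), had the largest rise in the KO. It had 20.1, 20.4 and 20.9 CPM in KO libraries, against 10.9, 12.3 and 10.9 CPM in GFP control libraries (log2 fold change 0.85, SE 0.11, adjusted p = 1.89e-05), a difference far wider than the spread of either group. In quiescent libraries it had 11.8, 9.58, 12.4 and 12.6 CPM, against 10.02, 9.83, 9.55 and 10.4 CPM in proliferating libraries (log2 fold change 0.21, SE 0.14, adjusted p = 0.185), where the groups overlapped, and without quiescent replicate 2 it was called (0.38, adjusted p = 0.0186). Naglu, an enzyme of heparan sulfate breakdown, followed in the KO after Manba and Idua, with 52.1, 50.7 and 62.3 CPM in KO libraries, against 32.8, 33.7 and 31.4 CPM in GFP control libraries (log2 fold change 0.75, SE 0.09, adjusted p = 8.97e-06). In quiescent cells Naglu (log2 fold change 0.17, SE 0.07, adjusted p = 0.0555) and the beta-glucuronidase Gusb (log2 fold change 0.15, SE 0.07, adjusted p = 0.0578) just missed the call. Naglu was called without quiescent replicate 2 or 4 or proliferating replicate 1 or 4 (adjusted p = 0.00199, 0.0265, 0.0381 and 0.0438). Gusb was called without quiescent replicate 1, 2 or 4 or proliferating replicate 4 (adjusted p = 0.0499, 0.00499, 0.0239 and 0.046). The rise of Gusb in the KO was small, with 43.01, 39.1 and 46.1 CPM in KO libraries, against 39.0, 34.8 and 35.4 CPM in GFP control libraries (log2 fold change 0.23, SE 0.08, adjusted p = 0.0288). Leaving out KO replicate 1 or 3 or GFP control replicate 2 or 3 ended that call (adjusted p = 0.0737, 0.0652, 0.113 and 0.105).

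The 2 glycosidases that fell in quiescent cells were Idua and Gla. Idua, the alpha-L-iduronidase of heparan and dermatan sulfate breakdown (ENSMUSG00000033540, chromosome 5, 108808197 to 108832423), had 2.10, 3.74, 3.42 and 3.49 CPM in quiescent libraries, against 6.64, 7.07, 7.16 and 6.66 CPM in proliferating libraries (log2 fold change -1.09, SE 0.21, adjusted p = 0.000266). In the KO it moved the other way, with 12.2, 12.4 and 17.8 CPM in KO libraries, against 7.63, 8.36 and 7.95 CPM in GFP control libraries (log2 fold change 0.82, SE 0.16, adjusted p = 0.000631). Neither pair of groups overlapped, and the levels were low throughout. Gla, the alpha-galactosidase A deficient in Fabry disease (ENSMUSG00000031266, chromosome X, 133488898 to 133501874), had 9.21, 8.99, 7.49 and 9.91 CPM in quiescent libraries, against 15.4, 15.1, 15.0 and 16.5 CPM in proliferating libraries (log2 fold change -0.80, SE 0.13, adjusted p = 4.73e-05). In the other pair its groups overlapped, with 11.2, 15.2 and 12.9 CPM in KO libraries and 11.9, 11.8 and 11.8 CPM in GFP control libraries (log2 fold change 0.14, SE 0.13, adjusted p = 0.383).

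Sulfatases, which remove sulfate from glycosaminoglycans and sulfolipids, were higher in 3 of 4 cases in quiescent cells and in 4 of 4 in KO cells. Ids, the iduronate sulfatase (ENSMUSG00000035847, chromosome X, 69386675 to 69408690), had the largest rise in quiescent cells, with 47.0, 65.6, 54.7 and 48.7 CPM in quiescent libraries, against 24.1, 24.2, 22.9 and 25.0 CPM in proliferating libraries (log2 fold change 1.17, SE 0.10, adjusted p = 3.4e-08). In KO libraries it had 94.9, 85.1 and 100.03 CPM, against 78.9, 84.2 and 72.9 CPM in GFP control libraries (log2 fold change 0.25, SE 0.07, adjusted p = 0.0089), a smaller rise whose call was lost without GFP control replicate 3 (adjusted p = 0.0667). Arsa, the arylsulfatase that degrades the myelin lipid sulfatide (ENSMUSG00000022620, chromosome 15, 89356679 to 89361628), had the largest rise in the KO. Its level was 38.2, 36.7 and 47.1 CPM in KO libraries, against 26.1, 21.2 and 24.9 CPM in GFP control libraries (log2 fold change 0.75, SE 0.11, adjusted p = 5.68e-05). In quiescent cells it rose as well, with 144, 125, 138 and 138 CPM in quiescent libraries, against 65.8, 71.8, 72.6 and 68.2 CPM in proliferating libraries (log2 fold change 0.97, SE 0.06, adjusted p = 4.5e-10). The heparan sulfatase Sgsh was higher in both (0.41 and 0.59). Arsb, which acts on dermatan sulfate, was called in the KO (0.34) and not in quiescent cells (log2 fold change 0.14, SE 0.07, adjusted p = 0.0943), where leaving out quiescent replicate 1 or 2 or proliferating replicate 5 gave a call (adjusted p = 0.0456, 0.0228 and 0.0369).

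All 4 lipid hydrolases were higher in both comparisons. Smpd1, the acid sphingomyelinase (ENSMUSG00000037049, chromosome 7, 105203567 to 105207596), had the largest rise in quiescent cells, with 286, 236, 262 and 266 CPM in quiescent libraries, against 126, 117, 129.8 and 118 CPM in proliferating libraries (log2 fold change 1.09, SE 0.06, adjusted p = 1.44e-10). The lowest quiescent library was well above the highest proliferating one. In the KO it had 84.0, 87.0 and 92.0 CPM, against 61.4, 60.8 and 63.8 CPM in GFP control libraries (log2 fold change 0.50, SE 0.06, adjusted p = 1.2e-05). Lipa, the acid lipase that frees cholesterol from cholesteryl esters, changed by 0.91 in quiescent and 0.57 in KO cells. Ppt1, the palmitoyl-protein thioesterase (ENSMUSG00000028657, chromosome 4, 122730035 to 122752968), led this group in the KO, with 126, 115 and 131 CPM in KO libraries, against 74.7, 81.6 and 84.4 CPM in GFP control libraries (log2 fold change 0.63, SE 0.06, adjusted p = 3.7e-06). Asah1, the acid ceramidase that acts after sphingomyelinase, rose by 0.55 in quiescent cells. Its KO rise was the smallest called one among all members, with 180.3, 171 and 176 CPM in KO libraries, against 163, 152 and 156 CPM in GFP control libraries (log2 fold change 0.16, SE 0.05, adjusted p = 0.0122). That call was lost without KO replicate 1 or GFP control replicate 2 or 3 (adjusted p = 0.0653, 0.0797 and 0.0519).

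Of the lipid transfer proteins and cofactors, 4 of 4 were higher in quiescent cells and 3 of 4 in KO cells. NPC1 and NPC2 pass cholesterol out of the lysosome, and their genes differed. Npc1 (ENSMUSG00000024413, chromosome 18, 12322749 to 12369457), which encodes the membrane transporter, had 415, 417, 424 and 425 CPM in quiescent libraries, against 154, 163, 160.5 and 177 CPM in proliferating libraries (log2 fold change 1.36, SE 0.05, adjusted p = 6.09e-13). Among the 43 members that passed the filter in this pair, only Ctsh had a larger fitted rise, and the groups of Npc1 lay far apart. In the KO it had 214, 215 and 201.64 CPM, against 195, 200.1 and 197 CPM in GFP control libraries (log2 fold change 0.09, SE 0.05, adjusted p = 0.123), where the groups were separate but the difference was not called, except without KO replicate 3 (0.12, adjusted p = 0.00735). Npc2, the soluble partner, changed by 0.25 in quiescent and 0.26 in KO cells, both called. Psap (ENSMUSG00000004207, chromosome 10, 60113449 to 60138376) led in the KO, with 2363, 2319 and 2846 CPM in KO libraries, against 1459, 1487 and 1477 CPM in GFP control libraries (log2 fold change 0.77, SE 0.07, adjusted p = 3.23e-06). It had 3636, 3203, 3551 and 3471 CPM in quiescent libraries, against 2573, 2597, 2564 and 2559.7 CPM in proliferating libraries (log2 fold change 0.43, SE 0.04, adjusted p = 1.68e-07). Grn, which encodes progranulin, a partner of prosaposin in traffic to the lysosome, rose by 0.26 in quiescent and 0.72 in KO cells.

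**Figure D3:**
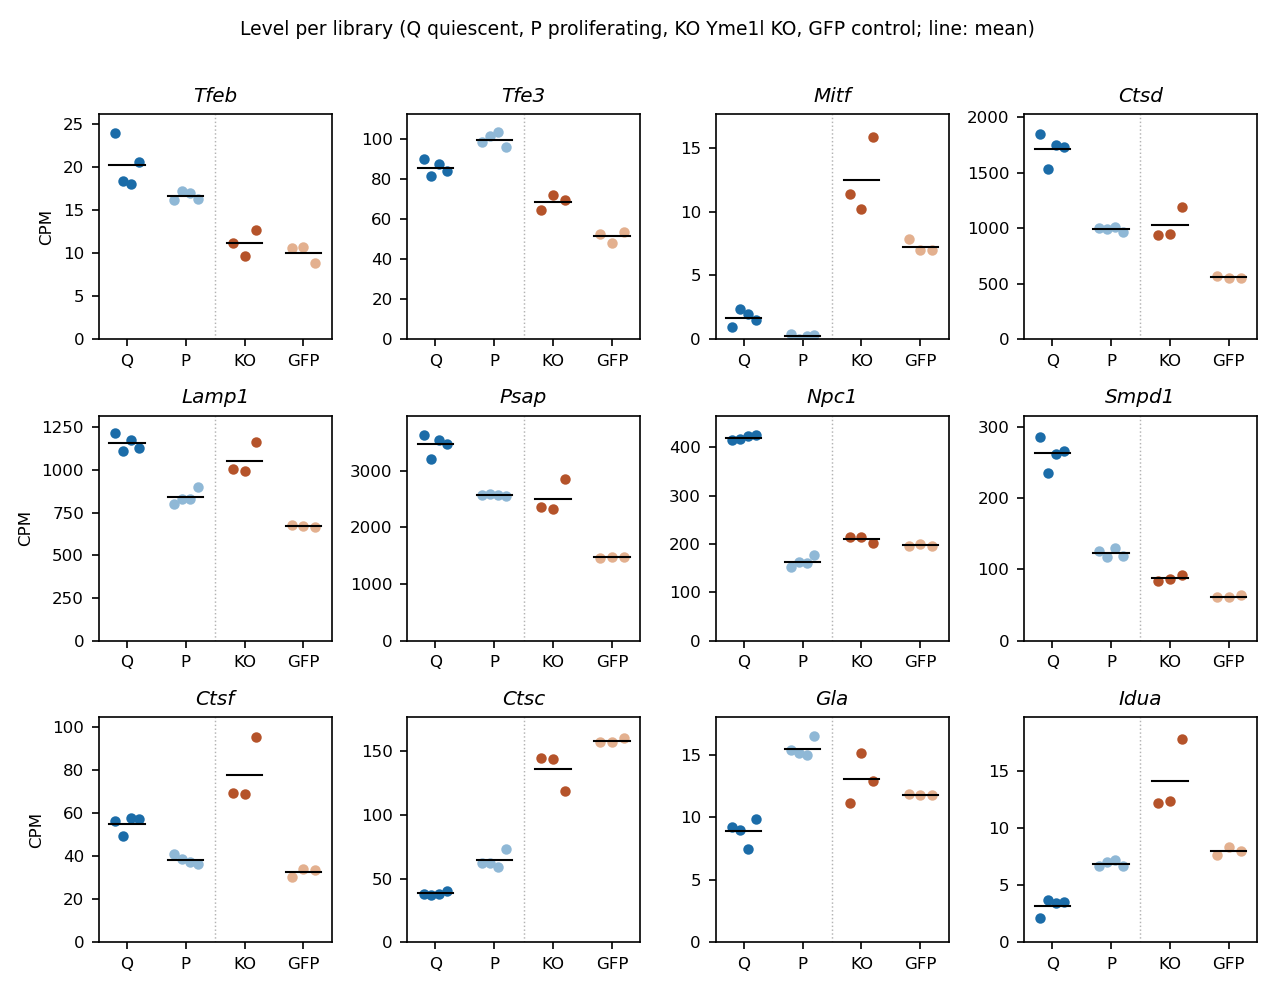
Level of 12 members in each library, in CPM on axes that start at 0, with the group mean as a line. The dotted line separates the quiescent and proliferating pair from the Yme1l KO and GFP control pair. Npc1 is far higher in quiescent than in proliferating cells and close to its control in KO cells, Ctsf is higher in both, and Idua and Tfe3 lie below proliferating cells in quiescent cells but above GFP control cells in KO cells.

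Membrane proteins were higher in 7 of 8 cases in quiescent cells and in 8 of 8 in KO cells. Lamp1 (ENSMUSG00000031447, chromosome 8, 13209161 to 13225338), the membrane glycoprotein often used to stain lysosomes, whose promoter window holds 4 E-boxes, had 1009, 994 and 1164 CPM in KO libraries, against 679, 674 and 667 CPM in GFP control libraries (log2 fold change 0.65, SE 0.06, adjusted p = 1.71e-06), the largest rise of this group in the KO. In quiescent libraries it had 1216, 1109, 1176 and 1128 CPM, against 799, 829, 829 and 901 CPM in proliferating libraries (log2 fold change 0.46, SE 0.05, adjusted p = 2.03e-07). Neither pair overlapped. Lamp2 (ENSMUSG00000016534, chromosome X, 37490234 to 37545331), which also serves in autophagy, had the largest rise of the group in quiescent cells. It had 86.5, 120.3, 101 and 88.2 CPM in quiescent libraries, against 65.7, 56.1, 63.1 and 60.1 CPM in proliferating libraries (log2 fold change 0.70, SE 0.10, adjusted p = 8.27e-05). In the KO its log2 fold change was 0.52, SE 0.06. Laptm4a and Laptm4b, small transmembrane proteins of late endosomes and lysosomes, changed by 0.50 and 0.37 in quiescent cells and each by 0.59 in KO cells. The calcium channel Mcoln1 changed by 0.30 and 0.44, in that order, and Scarb2, the receptor that carries glucocerebrosidase to the lysosome, by 0.18 and 0.50. Scarb2 was at 0.26 in quiescent cells without quiescent replicate 1 and lost its call under library size scaling (adjusted p = 0.566).

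Cd63 and Cln3 were the weakest of the membrane group. Cd63, a tetraspanin of late endosomes and exosomes, had 445, 408, 437 and 451 CPM in quiescent libraries, against 395, 404, 419 and 406 CPM in proliferating libraries (log2 fold change 0.10, SE 0.04, adjusted p = 0.0487), with overlapping groups. That call was lost without proliferating replicate 1, 2 or 5 or quiescent replicate 3 or 4 (adjusted p = 0.135, 0.105, 0.0921, 0.0506 and 0.0656), was 0.22 (adjusted p = 1.96e-05) without quiescent replicate 2, and turned to -0.039 with library size alone. In the KO Cd63 was higher (log2 fold change 0.30, SE 0.05, adjusted p = 0.00027). Cln3, mutated in juvenile neuronal ceroid lipofuscinosis, was not called in quiescent cells (log2 fold change 0.08, SE 0.10, adjusted p = 0.476). It had 12.2, 9.46 and 10.4 CPM in KO libraries, against 7.84, 7.40 and 8.62 CPM in GFP control libraries (log2 fold change 0.43, SE 0.15, adjusted p = 0.0241), a call that was lost without KO replicate 1 or GFP control replicate 1 or 2 (adjusted p = 0.123, 0.071 and 0.0879).

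The 3 transcription factors did not move together in quiescent cells. Tfeb (ENSMUSG00000023990, chromosome 17, 48047955 to 48103344) had 23.9, 18.5, 18.1 and 20.7 CPM in quiescent libraries, against 16.1, 17.2, 17.0 and 16.3 CPM in proliferating libraries (log2 fold change 0.28, SE 0.11, adjusted p = 0.037). The groups were separate but close, and the call was lost in 12 of 20 alternatives, with log2 fold changes of 0.14 to 0.32. It was lost without any one of the 4 proliferating libraries (adjusted p = 0.0576 to 0.0819) or quiescent replicate 1 (adjusted p = 0.075). It was also lost with library size alone (0.14, adjusted p = 0.26), the replicate block (adjusted p = 0.104), DESeq2 (adjusted p = 0.058), no count filter (adjusted p = 0.068) and limma on log2(TPM + 1) and log2(TPM + 0.1) (adjusted p = 0.125 and 0.126). Tfe3 (ENSMUSG00000000134, chromosome X, 7628799 to 7641441) was the most abundant of the 3 per length, at 52.1 ± 2.09 TPM in quiescent and 61.8 ± 1.21 TPM in proliferating cells, where Tfeb had 16.2 ± 1.16 and 14.2 ± 1.05 TPM. Tfe3 was lower in quiescent cells, with 90.4, 81.5, 87.9 and 84.0 CPM in quiescent libraries, against 98.5, 102, 104 and 96.1 CPM in proliferating libraries (log2 fold change -0.22, SE 0.05, adjusted p = 0.00196). All 4 quiescent libraries were below, and the call was lost without quiescent replicate 2, 3 or 4 (-0.11, -0.17 and -0.15, adjusted p = 0.0882, 0.0546 and 0.104). Mitf (ENSMUSG00000035158, chromosome 6, 97784013 to 97998310) was too low for the count filter in this pair, with 6, 20, 12 and 11 counts in quiescent libraries, against 4, 0, 2 and 3 counts in proliferating libraries. The ratio of summed counts, scaled for depth, was 7.08 (exact 95% interval 3.44 to 16.4, counting error only). Tested with no filter, Mitf was higher in quiescent cells (log2 fold change 2.72, SE 0.56, adjusted p = 4.67e-06, edgeR), and the authors' deposited table gives -3.37 for proliferating over quiescent cells (adjusted p = 1.6e-05). Both values rest on proliferating libraries with 0 to 4 counts, so the size of the change is uncertain.

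In the KO, Tfe3 and Mitf were higher and Tfeb was not called. Tfe3 had 64.5, 71.9 and 69.9 CPM in KO libraries, against 52.4, 48.3 and 53.6 CPM in GFP control libraries (log2 fold change 0.42, SE 0.07, adjusted p = 0.00017). Mitf had 11.4, 10.2 and 15.8 CPM in KO libraries, against 7.84, 6.97 and 6.99 CPM in GFP control libraries (log2 fold change 0.78, SE 0.17, adjusted p = 0.00154), and was highest in KO replicate 3. For Tfeb the groups overlapped, with 11.2, 9.68 and 12.7 CPM in KO libraries and 10.6, 10.7 and 8.81 CPM in GFP control libraries (log2 fold change 0.15, SE 0.14, adjusted p = 0.388). The difference of effects was called for Tfe3 at 0.59 (SE 0.09, adjusted p = 4.7e-05) and not for Tfeb at -0.17 (SE 0.18, adjusted p = 0.482). Mitf passed the filter of that fit only through the KO and GFP control libraries, so its fitted difference rests on proliferating libraries with 0 to 4 counts and is not read here.

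The 2 comparisons, which share no library, were then set against each other with the KO effect minus the quiescence effect in a fit of all 14 libraries. The pairs also differ in infection with a virus and in the summed levels of astrocyte markers and of neuroblast and neuron markers. The part of each in these differences cannot be told apart. Of 44 members tested, the KO effect was above the quiescence effect for 11 and below it for 9, beside 21% and 18% of the 13580 genes tested. For 24 members no difference was called, and a p over the threshold does not show equal effects. The 2 members with opposite called directions were Idua, with a difference of 1.86 (SE 0.25, adjusted p = 3.7e-06), and Tfe3. Gla, which fell in quiescent cells and was not called in the KO, differed by 0.89 (SE 0.18, adjusted p = 0.000427), and Ctsc, lower in both, by 0.47 (SE 0.12, adjusted p = 0.00274). The KO effect was also the larger for Ctsf (0.68), Manba (0.59), Naglu (0.54), Grn (0.41), Psap (0.28), Scarb2 (0.27) and Ppt1 (0.26). The quiescence effect was the larger for Npc1, with a difference of -1.32 (SE 0.08, adjusted p = 2.07e-11), and for Ids (-0.97), Ctsh (-0.82), Smpd1 (-0.65), Ctso (-0.48), Asah1 (-0.43), Ctsl (-0.41) and Lipa (-0.39). The remaining 1 of the 9 was Mitf, whose fitted value is not read for the reason given above.

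The split of these differences depends on scaling. RLE size factors moved the median of all genes to -0.09 and gave 8 members above and 11 below, and library size alone moved it to 0.16 and gave 21 and 7, in place of 0.01 with 11 and 9. The share of calls above 0 over all genes was 53.8%, 41.9% with RLE and 70.7% with library size alone. Idua, Tfe3, Gla, Ctsc, Npc1, Ids and Smpd1 kept their direction and call under each of these settings, under DESeq2 and with each library left out. The difference for Ctsh was lost without proliferating replicate 1 or quiescent replicate 3 or 4 (adjusted p = 0.0548, 0.0571 and 0.0741), with library size alone (adjusted p = 0.0532) and with the replicate block (adjusted p = 0.112). RLE size factors ended the calls of the differences for Psap, Scarb2 and Ppt1 (adjusted p = 0.1, 0.0899 and 0.137). Removing the GC trend ended those for Ctso, Lipa and Psap (adjusted p = 0.0704, 0.665 and 0.102). DESeq2 ended those for Psap, Scarb2, Ppt1 and Manba (adjusted p = 0.168, 0.12, 0.192 and 0.0522). That for Lipa was also lost with library size alone (adjusted p = 0.0763). The difference for Ppt1 was lost, too, without proliferating replicate 5, KO replicate 1 or GFP control replicate 1 (adjusted p = 0.0538, 0.0555 and 0.0786). With no count filter and with the replicate block it was not called either (adjusted p = 0.0632 and 0.0928). Counted over both pairs, 31 members were higher in each, beside 14.8% of the 11477 genes tested in both, and 1 (Ctsc) was lower in each, beside 18.4%. Across the 43 members tested in both, the fold changes had a Pearson r of 0.25 and a Spearman rho of 0.31. Over all 11477 genes tested in both these were higher, at 0.49 and 0.50. Both are descriptions across genes, which are not independent replicates.

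**Figure D4:**
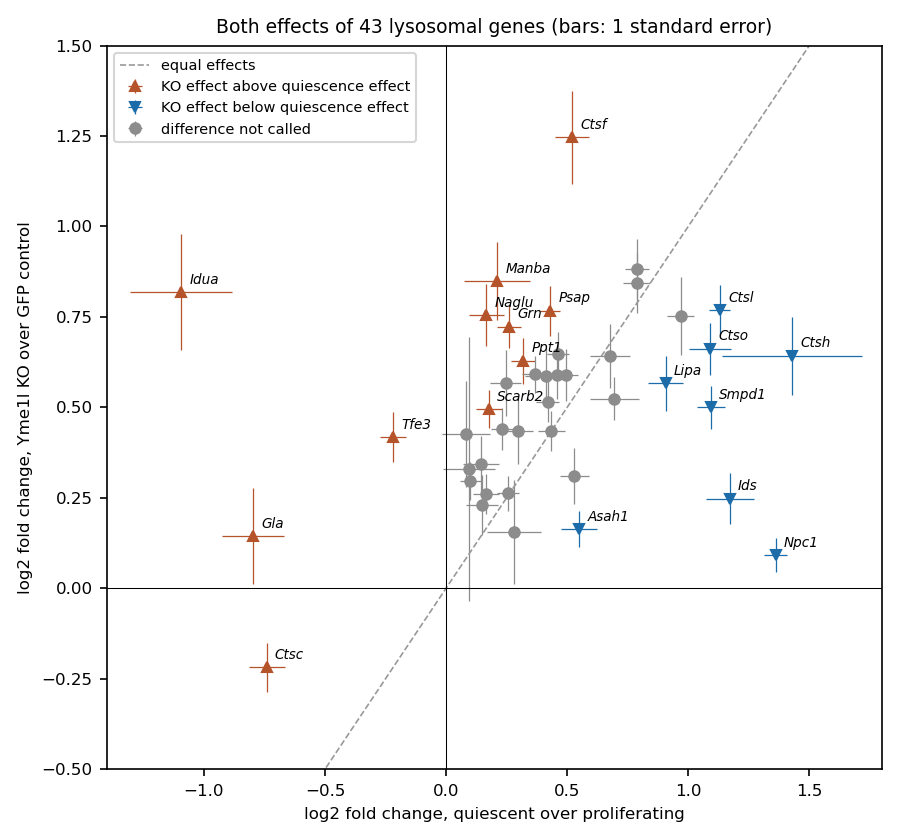
Log2 fold change in Yme1l KO over GFP control cells (vertical) against that in quiescent over proliferating cells (horizontal) for the 43 members tested in both, with 1 standard error as bars. Triangles mark members whose effects were called different, and the dashed line marks equal effects. Idua and Tfe3 sit at the upper left, Ctsc at the lower left, and Npc1, Ids and Ctsh lie far right of the dashed line.

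The promoter windows were set beside these changes. The 13 members with CACGTG in a window had a median log2 fold change of 0.43 in quiescent cells (10 higher, 1 lower) and 0.59 in the KO (12 higher, none lower). The matched members without it had medians of 0.26 (25 tested, 18 higher, 3 lower) and 0.51 (26 tested, 23 higher, 1 lower). These are descriptions with no test. Gla, which has 2 copies in its window, was lower in quiescent cells and not called in the KO.

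Other lysosomal genes gave a similar picture with more exceptions. Of 32 other lysosomal enzymes tested, 17 were higher and 7 lower in quiescent cells (median 0.36), beside 29.9% and 35.5% of all genes. In KO cells 20 were higher and 1 lower (median 0.37), beside 25.4% and 26.2%. Lgmn, the asparaginyl endopeptidase legumain, which cleaves cathepsin precursors, had 459 ± 22.8 CPM in quiescent and 143 ± 4.81 CPM in proliferating cells (SD, n = 4 each; log2 fold change 1.68, SE 0.05, adjusted p = 5.77e-14). In the other pair it had 165 ± 14.5 CPM in KO and 90.7 ± 4.21 CPM in GFP control cells (SD, n = 3 each; log2 fold change 0.86, SE 0.07, adjusted p = 5.96e-07). Plbd2, a phospholipase B-like protein, was higher in quiescent cells (log2 fold change 1.37, SE 0.06, adjusted p = 5.87e-12), and the hyaluronidase Hyal1 was higher in KO cells (log2 fold change 0.77, SE 0.14, adjusted p = 0.000475). Naaa, an acid amidase of N-acylethanolamines, fell in both, to 4.82 ± 1.16 CPM in quiescent cells, against 20.6 ± 2.52 CPM in proliferating cells (log2 fold change -2.08, SE 0.17, adjusted p = 1.81e-08). In KO cells it was at 6.98 ± 1.39 CPM, against 13.1 ± 0.552 CPM in GFP control cells (log2 fold change -0.91, SE 0.15, adjusted p = 0.000181).

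Of 26 other lysosomal membrane proteins tested, 17 were higher and 2 lower in quiescent cells (median 0.51), beside 29.9% and 35.5% of all genes. In KO cells 17 were higher and none lower (median 0.40), beside 25.4% and 26.2%. In quiescent cells the largest changes were those of Tmem106b, a lysosomal membrane protein linked to frontotemporal dementia (log2 fold change 1.56, SE 0.25, adjusted p = 0.000433), Sidt2 (log2 fold change 1.14, SE 0.05, adjusted p = 7.69e-12) and the endolysosomal cation channel gene Tpcn1 (log2 fold change 1.08, SE 0.05, adjusted p = 3.44e-11). In KO cells they were those of Tmem192 (log2 fold change 0.74, SE 0.15, adjusted p = 0.000895), Glmp (log2 fold change 0.64, SE 0.06, adjusted p = 2.23e-06) and Slc38a9, the arginine sensor of mTORC1 on the lysosome (log2 fold change 0.61, SE 0.11, adjusted p = 0.000361). The machinery that delivers hydrolases did not shift one way. Of 17 genes of mannose-6-phosphate and sortilin sorting, 6 were higher and 5 lower in quiescent cells (median 0.03), and 5 were higher and 5 lower in KO cells (median 0.02), shares close to those of all genes. Gnptab, which encodes the enzyme that starts the mannose-6-phosphate tag, was higher in quiescent cells (log2 fold change 0.60, SE 0.11, adjusted p = 0.000284), as was the retromer gene Vps35 (log2 fold change 0.79, SE 0.28, adjusted p = 0.0348), and Cln6 was lower (log2 fold change -0.61, SE 0.08, adjusted p = 4.99e-06). In KO cells Gnptg, the partner of Gnptab in that enzyme, was higher (log2 fold change 0.56, SE 0.09, adjusted p = 9.81e-05), as was the mannose-6-phosphate receptor Igf2r (log2 fold change 0.49, SE 0.05, adjusted p = 2.03e-06), while the clathrin adaptor gene Ap1s1 was lower (log2 fold change -0.47, SE 0.07, adjusted p = 8.23e-05).

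A list of 29 tested genes act on TFEB through mTORC1, the Rag GTPases, folliculin, sestrins or calcineurin. Of these, 15 were higher and 8 lower in quiescent cells (median 0.20), beside 29.9% and 35.5% of all genes (median -0.01). In KO cells 12 were higher and 2 lower (median 0.12), beside 25.4% and 26.2% of all genes (median 0.00). The largest called changes in quiescent cells were those of Lamtor1, the Ragulator subunit that anchors the complex to the lysosome (log2 fold change 0.78, SE 0.05, adjusted p = 2.58e-09), Sesn3 (log2 fold change 0.63, SE 0.22, adjusted p = 0.0392) and Akt1 (log2 fold change -0.59, SE 0.05, adjusted p = 2.18e-08). In KO cells Flcn, which encodes folliculin, had 88.9 ± 11.7 CPM, against 50.5 ± 3.63 CPM in GFP control cells (SD, n = 3 each; log2 fold change 0.81, SE 0.09, adjusted p = 1.44e-05). The leucine sensor and stress gene Sesn2 (log2 fold change 0.70, SE 0.06, adjusted p = 1.67e-06) and its relative Sesn3 (log2 fold change 0.70, SE 0.08, adjusted p = 2e-05) followed.

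Transcripts within a gene were compared as shares of its estimated counts, with 2-sided exact permutation tests over libraries. The transcripts Psap-202 and Psap-205, both protein-coding, differ little in length (2646 and 2657 bases). Psap-202 held 57.3% to 58.5% of Psap counts in KO libraries, against 65.8% to 67.0% in GFP control libraries. Psap-205 held 40.5% to 41.8% in KO libraries, against 32.7% to 33.7% in GFP control libraries. The groups did not overlap for either transcript (p = 0.1 by the exact permutation test, the smallest p that 3 against 3 allows, adjusted p = 0.15). In quiescent cells the share of Psap-202 was 69.8% ± 1.27, against 72.7% ± 2.18 in proliferating cells (SD, n = 4 each; exact permutation p = 0.0571, adjusted p = 0.114). Lamp2-201 held 28.6% ± 2.14 of Lamp2 counts in KO and 24.4% ± 1.19 in GFP control cells (SD, n = 3 each; exact permutation p = 0.1, adjusted p = 0.15). In the other pair it held 61.1% ± 5.30 in quiescent and 64.6% ± 6.397 in proliferating cells (SD, n = 4 each; exact permutation p = 0.4, adjusted p = 0.4). None of the share differences passed the threshold after adjustment, and those of 3 against 3 could not.

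**Figure D5:**
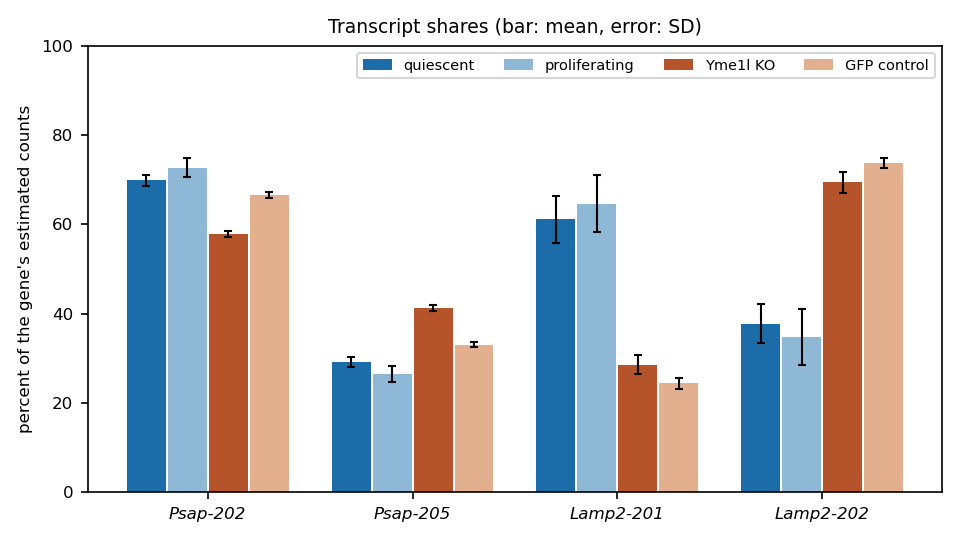
Mean share of each gene's estimated counts, in percent, held by 2 transcripts each of Psap and Lamp2, with the SD as an error bar, in quiescent, proliferating, Yme1l KO and GFP control cells. Psap-205 stands at 41.2% in KO cells and 33.1% in GFP control cells, and Lamp2-201 stands above 60% in the first pair and below 30% in the second. These shares of counts do not allow for transcript length.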

How the data were processed

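Poly-A RNA of 14 libraries was sequenced with a stranded TruSeq kit after TRIzol extraction, per the labels' protocols. The authors quantified the reads with salmon, as the deposited tables are named, and deposited estimated counts and TPM per gene and per transcript, separately for each pair of groups. Build GRCm39, R 4.0.3 and DESeq2 1.30.1 are named in the submitters' processing notes. The authors' deposited tables of their own comparisons give log2 fold changes with standard errors, p-values and adjusted p-values, a mean normalised signal over the libraries of a pair, and gene coordinates. The aligner settings are not given in the sources used here.

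Here the estimated gene counts were rounded and tested with edgeR 4.0.16 in R 4.3.3 (TMM scaling, filterByExpr, robust quasi-likelihood fit, Benjamini-Hochberg adjustment over all genes tested, calls at 0.05). Each pair was fitted alone, and a fit of all 14 libraries gave the KO effect minus the quiescence effect. CPM were computed within a pair. TPM served for levels between genes, for sums, for levels set across the tables with no test, and in the limma alternatives. Transcript shares were tested with 2-sided exact permutation tests. In gene sums of whole-cell RNA, counts of near-identical copies depend on how salmon split the reads. Intervals cover counting error only. The scripts were tested on simulated data.

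The groups come from the labelled treatments. Columns of the tables were matched to samples through the identifiers in the deposited sample sheet, so the proliferating libraries carry the labelled replicate numbers 1, 2, 4 and 5. No replicates were merged. Same-numbered libraries of both groups did not deviate together, so no pairing was used.

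The 45 members and all gene lists were chosen with earlier results of these data known. Values in every library are given for the 3 transcription factors, for the largest called rise and fall of each role in each comparison, for members with opposite effects and for members whose call rested on 1 library. Ctsl, Ctsd, Ctsz, Naglu and, for the pair in which they did not lead, some of the others were added after their values were seen. From the other lists, up to 3 genes per comparison with the largest called change and a mean of at least 5 CPM are named.

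Alternatives were RLE size factors, library size alone, DESeq2 1.42.0, 2 other count filters, length-scaled counts, limma 3.58.1 on log2(TPM + 1) and log2(TPM + 0.1), a replicate block, 1 fit for all libraries and each library left out. Counts scaled from TPM and removal of a GC trend were added after seeing the data.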

Additional observations from a re-analysis of the deposited data

Results flagged for a closer look

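In 6 of 86 groups of 4 libraries, 1 library lay far from the other 3 by Dixon's test at the 95% level. Chance gives about 1 in 20 such groups. Quiescent replicate 2 was low for Ctsf, with 49.4 CPM beside 56.4 to 57.6 CPM in the other quiescent libraries, and for Grn, with 272.4 CPM beside 303 to 309.6 CPM. Proliferating replicate 5 was high for Laptm4a, with 558.7 CPM beside 500.4 to 503.5 CPM in the other proliferating libraries, for Tpp1, with 134.7 CPM beside 119 to 122 CPM, and for Asah1, with 56.24 CPM beside 50.1 to 51.1 CPM. The same library was low for Sgsh, with 23.64 CPM beside 27.8 to 28.6 CPM. All 6 genes were called higher in quiescent cells, and none of these calls was lost when the library named was left out.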

How the results depend on the processing

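In quiescent cells the calls of 29 of 43 members kept their direction and their side of the threshold under every alternative run, in KO cells those of 36 of 44, and for the difference of effects those of 13 of the 20 called. With library size alone as the scaling, the median log2 fold change in quiescent cells was 0.27, with 27 members higher and 4 lower, beside a median of -0.15 over all genes, of whose calls 35.1% were then higher in place of 45.7%. Under that scaling Ctsz (-0.043), Cln3 (-0.054) and Cd63 (-0.039) turned below 0 in quiescent cells, and Cln3 did so too with a replicate block (-0.015), in limma on log2(TPM + 1) and log2(TPM + 0.1) (-0.079 and -0.082) and with counts scaled from TPM (-0.030). The number of members called lower in KO cells was 0 in limma with either pseudocount, with counts scaled from TPM and with the GC trend removed, since Ctsc was then not called. Members with a larger KO effect numbered 21 with library size alone and 7 with DESeq2. The share of all genes' calls above 0 was then 70.7% and 40.5%, in place of 53.8%. The causes were not tested.

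With each library left out in turn, 32 to 38 members were higher and 3 to 4 lower in quiescent cells, with medians of 0.39 to 0.53, the highest without quiescent replicate 2. Without that library the median of all genes was 0.04, in place of -0.01, and 51.1% of their calls were higher, in place of 45.7%. In KO cells 36 to 39 were higher and 0 to 1 lower (0 without GFP control replicate 3), with medians of 0.46 to 0.59. For the difference of effects 10 to 12 were above and 8 to 11 below. Of the calls over all genes, 48.2% to 49.2% were higher in KO cells, and 52.3% to 55.1% were above 0 for the difference. The ratio of summed TPM ranged from 1.38 to 1.41 in the first pair and from 1.45 to 1.57 in the second. Same-numbered libraries did not deviate together (correlations of -0.24, -0.35 and -0.01 for quiescent and proliferating, and 0.002, -0.05 and -0.006 for KO and GFP control). Quiescent replicate 2 and proliferating replicate 1 had a correlation of 0.51, so a pairing under other numbers is not excluded. With the replicate block 30 members were higher and 4 lower in quiescent cells, 39 higher and 1 lower in KO cells, and 10 above and 8 below for the difference. The share of all genes' calls above 0 was then 43.6%, 49.0% and 55.4%, in that order. In that block quiescent replicate 3 and proliferating replicate 5 had no partner. Depth limits the members with the fewest counts most, among them Mitf in the first pair and Ctsz in the second.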

Other observations

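Across the 2 tables, which were made separately and share no library, some members stood at very different levels, and these differences were not tested. Proliferating and GFP control cells both grew in FGF and EGF. Ctsz averaged 33.2 ± 4.54 TPM in proliferating and 1.38 ± 0.343 TPM in GFP control cells, and Mitf 0.0871 ± 0.0658 and 3.68 ± 0.376 TPM. Lamp2 averaged 51.9 ± 2.07 TPM in proliferating and 198 ± 2.94 TPM in GFP control cells, Asah1 33.7 ± 1.82 and 129 ± 7.14 TPM, and Ctsc 59.7 ± 3.87 and 136 ± 6.76 TPM. For each of these 5 genes this distance was wider than the difference within either pair, on the scale of mean TPM. Mitochondrial DNA took 0.362% to 0.595% of counts in quiescent and 0.316% to 0.573% in proliferating libraries, below the shares in the second table.

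Among genes outside the 45 members, the E-box CACGTG was found in 50% of the 14 promoter windows of mannose-6-phosphate and sortilin sorting genes, the list whose mRNA did not shift one way in either comparison. It was in 20.7% of 29 windows of the other membrane proteins, 19.4% of 31 windows of genes that act on TFEB and 9.38% of 32 windows of the other enzymes. These shares are descriptions of small lists, with no test.

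The authors' deposited tables gave 33 members with a called higher level in quiescent cells and 4 with a lower one, and 34 with a higher and 0 with a lower level in KO cells. The share of all genes called in the authors' tests was not counted, so these counts cannot be set against it. Those 33 were not all the members called higher here. In the authors' test Tfeb, Man2b1 and Sgsh were not called (adjusted p = 0.196, 0.0534 and 0.102). Gusb, Naglu and Mitf were (adjusted p = 0.0468, 0.0355 and 1.6e-05). In KO cells Asah1, Cln3, Ctsc, Galc, Gusb and Ids were not called there (adjusted p = 0.0852 to 0.589).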
